A study of Mus musculus with 6 samples.

Results

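Cdh26, cadherins and catenins were described in CT26.mMR1 cells and in M8 cells. The genes were Cdh26, Cdh1, Cdh2, Cdh3, Cdh11 and Cdh13, which encode cadherins, and Ctnna1, Ctnnb1, Ctnnd1 and Jup, which encode catenins. They were found by symbol and make up 10 of the 24346 genes in the deposited values. The set was chosen by its M8 against parental differences, which were already known from these samples, so the values of its members are given as a description, with no p-value. CT26 is a mouse colorectal tumor cell line, and CT26.mMR1 cells carry mouse MR1 introduced by a retrovirus. These are the parental cells. All 6 sample titles carry CT26_cl9, which the labels do not explain and which was taken here for CT26.mMR1 from the label of MR1 overexpression. M8 is a mutant of CT26.mMR1 cells obtained with the chemical mutagen N-ethyl-N-nitrosourea (ENU) and kept because it activated a MAIT cell reporter line more strongly and carried more MR1 on its surface. Both lines therefore overexpress MR1. M8 stands for 1 mutant, so features of that mutant and of mutagenesis in general cannot be told apart. RNA was sequenced from 3 samples of each line, which the study calls biological replicates. Neither the labels nor the methods say how the replicates were grown, so the p-values below measure the spread between these samples.

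Classical cadherins are transmembrane proteins that bind cadherins on neighbouring cells through calcium-dependent extracellular repeats. Their cytoplasmic tails bind p120 catenin (Ctnnd1), which holds the cadherin at the surface, and either beta-catenin (Ctnnb1) or plakoglobin (Jup), which in turn bind alpha-catenin (Ctnna1) and through it the actin cytoskeleton. Beta-catenin also carries Wnt signals to the nucleus, so the cadherin genes, the catenin genes and the Wnt pathway share a component. Epithelial tumor cells typically express E-cadherin (Cdh1), whereas N-cadherin (Cdh2) is typical of mesenchymal and neural cells. Cdh26 is a less studied cadherin of mucosal epithelium that binds catenins and alpha 4 and alpha E integrins.

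The promoters of 3 members are shown because they carry the contrast described below: Cdh26 had the largest difference among the members, Jup was the member with M8 values below the parental ones, and Ctnnb1 kept nearly the same level. Each run holds 250 bases before to 50 bases after the transcription start, 5′ to 3′ on the strand of the gene, from the RefSeq annotation of GRCm38.p6. CG dinucleotides are in capitals. Ctnnb1 has 2 entries in this annotation, and the 1 with more CG dinucleotides is printed. The sequence is that of the reference genome and not of CT26, and the ENU mutations of M8 were not examined. The regions are chr2:178430265-178430564 on the plus strand for Cdh26, chr11:100397741-100398040 on the minus strand for Jup and chr9:120933328-120933627 on the plus strand for Ctnnb1.
Cdh26: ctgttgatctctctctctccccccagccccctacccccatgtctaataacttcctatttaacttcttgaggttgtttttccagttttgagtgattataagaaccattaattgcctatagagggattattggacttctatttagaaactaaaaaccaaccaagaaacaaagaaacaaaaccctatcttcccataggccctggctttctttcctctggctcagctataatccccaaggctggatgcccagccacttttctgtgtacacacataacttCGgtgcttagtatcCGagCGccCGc
Jup: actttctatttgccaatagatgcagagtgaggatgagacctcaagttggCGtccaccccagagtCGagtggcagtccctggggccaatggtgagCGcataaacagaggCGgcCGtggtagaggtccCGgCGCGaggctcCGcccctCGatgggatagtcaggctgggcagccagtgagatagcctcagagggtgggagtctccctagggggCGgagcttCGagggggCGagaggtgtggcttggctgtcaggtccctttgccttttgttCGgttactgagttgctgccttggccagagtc
Ctnnb1: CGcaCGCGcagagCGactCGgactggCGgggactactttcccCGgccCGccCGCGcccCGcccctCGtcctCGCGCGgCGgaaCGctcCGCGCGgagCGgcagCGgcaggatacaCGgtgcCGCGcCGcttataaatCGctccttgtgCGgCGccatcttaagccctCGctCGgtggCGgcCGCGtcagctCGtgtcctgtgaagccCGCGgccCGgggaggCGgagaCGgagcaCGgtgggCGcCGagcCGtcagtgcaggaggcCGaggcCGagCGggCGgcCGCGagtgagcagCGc
The Cdh26 promoter held 4 CG dinucleotides and had a GC content of 44%, and 31.4% of 32851 promoters of the same length held fewer. The median promoter held 7 and had a GC content of 52.7%. Jup held 14 CG dinucleotides, with 63.7% of promoters below it, and Ctnnb1 held 51, with 99.3% below it. The Cdh26 window was searched on both strands for 9 short motifs. It held the CCAAT box (CCAAT) on the reverse strand at position -124 from the start, letters that 37.4% of all promoters hold, and the Ets core (GGAAGT) on the reverse strand at -202, which 23.8% hold. No match was found in this window to the E-box core CANNTG (in 72.3% of promoters) or to CACCTG, the form of it bound by Snail and Zeb proteins (20.2%). Nor was there a match to the Tcf and Lef core CTTTGA (16%), the TATA box TATAAA (13.6%), the Sp1 box GGGCGG (35.7%), the Stat core TTCNNNGAA (8.3%) or the AP-1 motif TGACTCA (5.2%). Of the members, 4 were matched in the promoter table, the other being Ctnnd1.

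Expression was deposited by the authors as FPKM, a count of fragments corrected for transcript length and library size, so that levels can be compared between genes per length of transcript. FPKM tables carry no depth of their own, but low values rise in steps of 1 read. From these steps the parental libraries held an estimated 23.7 to 26.9 M reads and the M8 libraries 19.4 to 21.9 M, with 71.4% to 74.5% of low values within 0.1 of a whole read. The difference in depth moves with the line, and its part in the results was not tested. Changes in other genes were tested with limma on log2(FPKM + 1), over 10597 genes whose FPKM averaged 1 or more, and an adjusted p below 0.1 counted as a call. By this rule 2250 genes (21.2%) were higher and 1745 (16.5%) were lower in M8. The split depended on the scaling, with 1658 higher and 2209 lower after rescaling to TPM and 1470 higher and 2769 lower after upper-quartile scaling. All differences below are M8 minus parental on the log2(FPKM + 1) scale, which understates the change of low genes. In RNA from bulk cells, fewer cells of a type and less RNA per cell cannot be told apart.

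Among genes with a Cdh symbol, Cdh26 had the highest FPKM in both lines, and its values were higher in M8. The gene (ENSMUSG00000039155.15) lies at chr2:178430531-178487366 on the plus strand in GRCm38, its longest coding transcript has 14 exons, and no other annotated gene overlaps it. Parental samples 1 to 3 held 38.7, 42.5 and 39.4 FPKM. M8 samples 1 to 3 held 61.7, 64.2 and 63.8 FPKM. Every M8 value lay above every parental value. The mean was 40.2 ± 1.99 FPKM for the parental line and 63.2 ± 1.32 FPKM for M8 (SD, n = 3), a ratio of 1.57 and a log2 difference of 0.64 (SE 0.0462). This placed Cdh26 at rank 41 of 10597 genes ordered from the largest increase, in a distribution with a median of 0.00687 and a range from the 5th to the 95th percentile of -0.319 to 0.314. Its level was above that of 82.7% of these genes. The estimated reads behind it were 2623 to 2872 in the parental samples and 3371 to 3660 in M8, although the M8 libraries were shallower. The difference stayed between 0.615 and 0.679 with each sample left out in turn, and was 0.608 with TPM, 0.58 with upper-quartile scaling and 0.567 with quantile normalization.

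**Figure D1:**
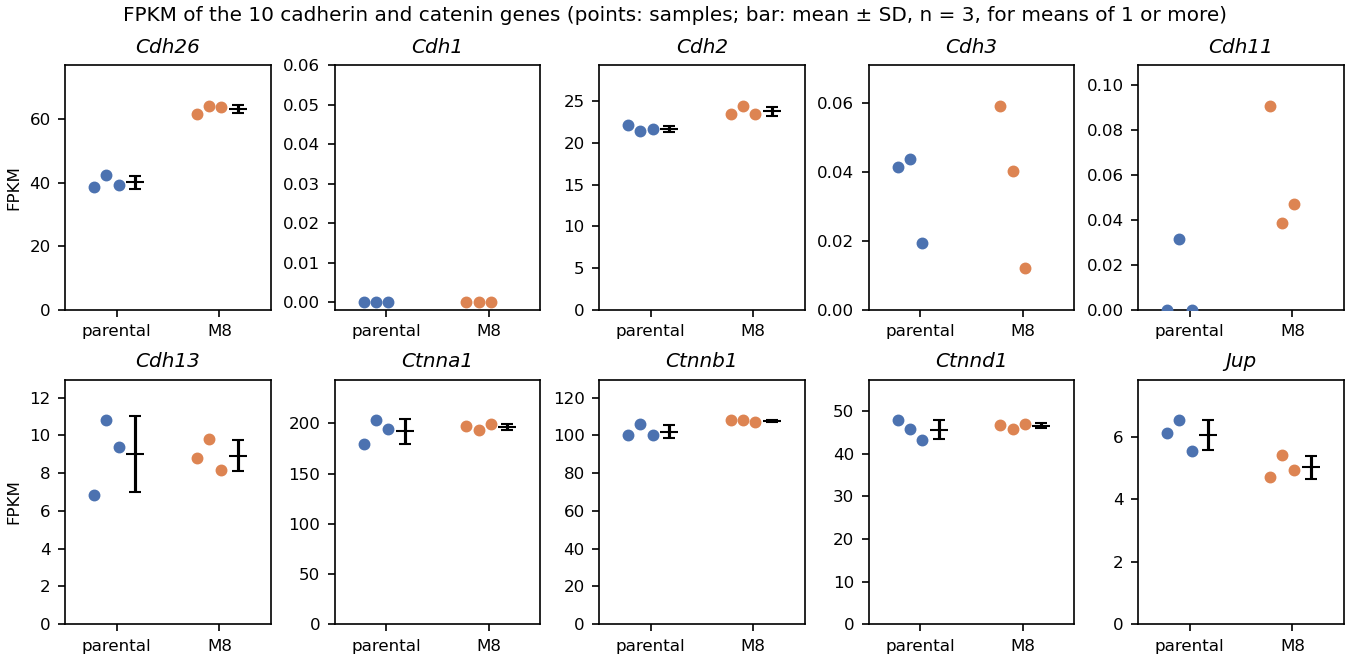
FPKM of the 6 cadherin and 4 catenin genes in each sample, with a separate linear FPKM axis for each gene. Points are the 3 parental (blue) and 3 M8 (orange) samples, and black bars are the mean ± SD of genes averaging 1 FPKM or more. The Cdh26 samples of M8 lie at 61.7 to 64.2, above the parental ones at 38.7 to 42.5, the Jup samples of M8 lie below the parental ones, and Cdh1 is listed at 0 in all 6.

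N-cadherin, encoded by Cdh2 (chr18:16588877-16809246, minus strand), was the next cadherin in level. Parental samples held 22.1, 21.4 and 21.6 FPKM and M8 samples held 23.4, 24.4 and 23.5 FPKM. The groups did not overlap, but the gap was small beside that of Cdh26. The means of 21.7 ± 0.32 and 23.8 ± 0.509 FPKM (SD, n = 3) gave a ratio of 1.1 and a log2 difference of 0.13 (SE 0.0431), which shrank to 0.0669 with upper-quartile scaling. An antisense gene overlaps Cdh2, and how the authors' counting used strand is not given in the sources used here. T-cadherin, encoded by Cdh13 (chr8:118283733-119324921, plus strand), is anchored in the membrane by a lipid and lacks the catenin-binding tail. It held 6.85, 10.8 and 9.4 FPKM in parental samples and 8.8, 9.81 and 8.17 FPKM in M8. These groups overlapped, and the parental values alone spanned more than the M8 values. The means were 9.03 ± 2.03 and 8.93 ± 0.827 FPKM (SD, n = 3), and the log2 difference of 0.00232 (SE 0.132) moved from -0.165 to 0.133 when single samples were left out. Cdh13 is overlapped by 5 annotated genes, none of them protein-coding.

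The other 3 cadherins were at or near the limit of detection. E-cadherin, encoded by Cdh1 (chr8:106603351-106670246, plus strand), was listed at 0 in all 6 samples, where 3 reads would have been worth 0.0264 to 0.0366 FPKM. This limit covers counting error only. P-cadherin, encoded by Cdh3 (chr8:106510891-106557297, plus strand) beside Cdh1, held 0.0414, 0.0437 and 0.0193 FPKM in parental samples and 0.0592, 0.0403 and 0.0123 FPKM in M8. That is about 1.1 to 5.4 reads a library, and the groups overlapped. Cdh11 (chr8:102632095-102785642, minus strand), a cadherin of mesenchymal cells, held 0, 0.0313 and 0 FPKM in parental samples and 0.0905, 0.0385 and 0.0468 FPKM in M8. The M8 values were all above the parental ones, but they rested on an estimated 4.1 to 10.8 reads against at most 4.0, so no fold is given. Cdh11 is also overlapped by 4 annotated genes on the same strand, none of them protein-coding. None of these 3 cadherin genes passed the minimum of 1 FPKM.

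The summed FPKM of the 6 cadherin genes was higher in M8, and Cdh26 accounted for most of the gap: it went from 40.2 to 63.2 FPKM while the sum went from 71 to 96 FPKM. The 6 genes summed to 67.7, 74.8 and 70.5 FPKM in parental samples and to 94.1, 98.4 and 95.5 FPKM in M8. Cdh26 made up 57.2%, 56.8% and 55.9% of that sum in parental samples and 65.6%, 65.2% and 66.7% in M8, while the share of Cdh2 went from 30.6% ± 1.97 to 24.8% ± 0.13 (SD, n = 3). The ratio of Cdh26 to Cdh2, which does not depend on a sample's scaling, was 1.76, 1.98 and 1.82 in parental samples and 2.63, 2.63 and 2.71 in M8. The same holds over the 23 genes with a Cdh symbol, of which 11 were at 0 in every sample and 4 (Cdh26, Cdh2, Cdh13 and Cdh24) had a mean of at least 1 FPKM. Cdh26 held 48.7% to 49.8% of their summed FPKM in parental samples and 58.5% to 61.2% in M8. Since Cdh26 is part of each of these sums, the sums and the shares mostly restate its own difference.

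**Figure D2:**
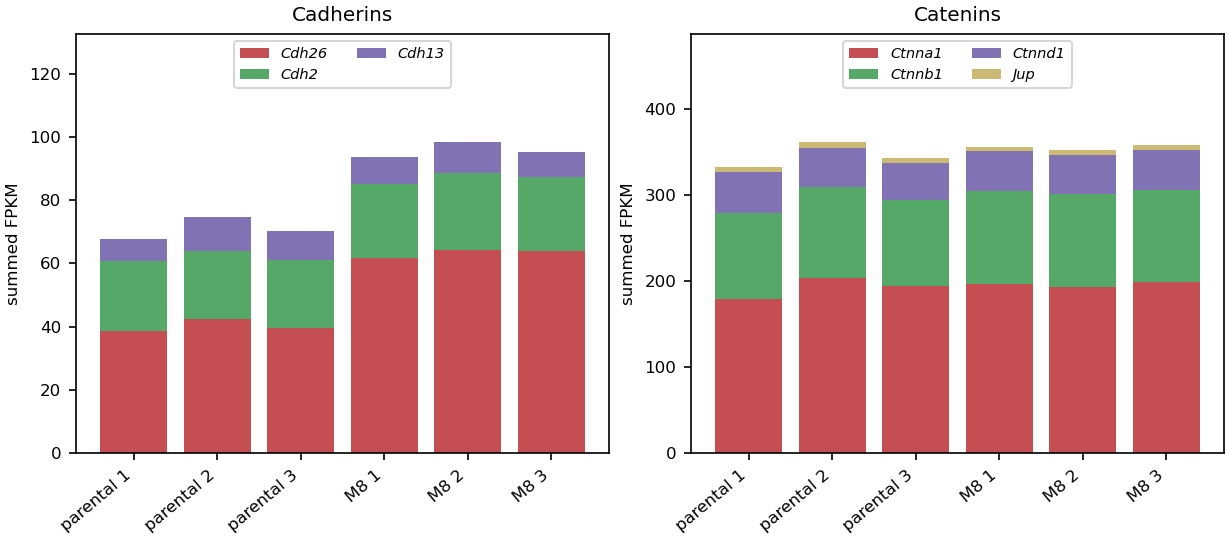
Stacked FPKM of Cdh26, Cdh2 and Cdh13 (left) and of Ctnna1, Ctnnb1, Ctnnd1 and Jup (right) in each sample, on linear axes that start at 0. With the 3 cadherins near 0 included, the cadherin sums were 67.7 to 74.8 FPKM in parental samples and 94.1 to 98.4 FPKM in M8, while the catenin sums overlapped at 334 to 362 and 353 to 358 FPKM.

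Catenin transcripts were several times as abundant as cadherin transcripts, and 3 of the 4 kept nearly the same level. Ctnna1 (chr18:35118859-35254779, plus strand), whose product links the complex to actin, was the highest member. It held 179, 203 and 194 FPKM in parental samples and 197, 193 and 199 FPKM in M8. The groups overlapped, with means of 192 ± 12.2 and 196 ± 2.97 FPKM (SD, n = 3). Its log2 difference of 0.0327 (SE 0.049) became -0.00427 with TPM and -0.0759 with quantile normalization. The gene Lrrtm2 lies within it on the opposite strand.

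Ctnnb1 (chr9:120929216-120960507, plus strand) encodes beta-catenin, which binds the cadherin tail and also acts with Tcf and Lef proteins in the nucleus. It held 100, 106 and 100 FPKM in parental samples and 108, 108 and 107 FPKM in M8. All M8 values were above the parental ones by a narrow margin, and the log2 difference was 0.0795 (SE 0.0389), which became -0.0199 with quantile normalization. Ctnnb1 is overlapped by Mir7090 on the same strand and by Ulk4 and 4930593C16Rik on the opposite strand. Ctnnd1 (chr2:84600071-84650765, minus strand), encoding p120 catenin, held 47.9, 45.9 and 43.3 FPKM in parental samples and 46.8, 45.9 and 47 FPKM in M8. These values overlapped, and the log2 difference of 0.0268 (SE 0.0462) was negative with TPM, quantile and upper-quartile scaling. The protein-coding gene Gm28635 overlaps Ctnnd1 on the same strand, so strand would not separate their reads.

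Jup was the only member whose M8 values all lay below the parental ones. It lies at chr11:100368958-100397763 on the minus strand and encodes plakoglobin, a relative of beta-catenin that serves both adherens junctions and desmosomes. Parental samples held 6.1, 6.52 and 5.55 FPKM and M8 samples held 4.7, 5.41 and 4.94 FPKM. The gap was narrow, with 5.41 against 5.55 FPKM at the closest point. The means were 6.06 ± 0.49 and 5.01 ± 0.358 FPKM (SD, n = 3), a ratio of 0.828 and a log2 difference of -0.23 (SE 0.0768), and the difference ranged from -0.282 to -0.182 with single samples left out. Jup was the lowest catenin, above only 21.5% of the genes tested. The ratio of Ctnnb1 to Jup was 16.5, 16.3 and 18.1 in parental samples and 23.1, 20.1 and 21.7 in M8. Summed catenin FPKM per cadherin FPKM was 4.93, 4.83 and 4.87 in parental samples and 3.79, 3.59 and 3.75 in M8. The catenin sums overlapped (means of 346 and 356 FPKM), so this ratio mostly restates the higher Cdh26 in the cadherin sum.

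Set in order of level, the parental cells ran Ctnna1, Ctnnb1, Ctnnd1, Cdh26, Cdh2, Cdh13, Jup, Cdh3, Cdh11 and Cdh1. Neighbours in this order did not overlap in their sample values down to Jup and Cdh3, whereas Cdh3, Cdh11 and Cdh1 overlapped. In M8 the order differed in 2 places. Cdh26 stood above Ctnnd1 without overlap (63.2 against 46.6 FPKM). In parental cells Cdh26 had stood below Ctnnd1, also without overlap (40.2 against 45.7 FPKM). That parental gap was narrow, with 42.5 against 43.3 FPKM at the closest point. Cdh11 and Cdh3 also changed places, but their values overlapped.

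Of the 10 members, 7 passed the minimum of 1 FPKM. The fit over all genes included these 7. By its threshold 2 were called higher (Cdh26 and Cdh2), against 21.2% of all genes tested, and 1 was called lower (Jup), against 16.5%. For 3 members (Cdh26, Cdh2 and Ctnnb1) the M8 values were all above the parental ones, which held for 24.8% of all genes, and for 1 (Jup) they were all below, which held for 20.4%. Because the members were selected on this same contrast, nothing is read from these counts.

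**Figure D3:**
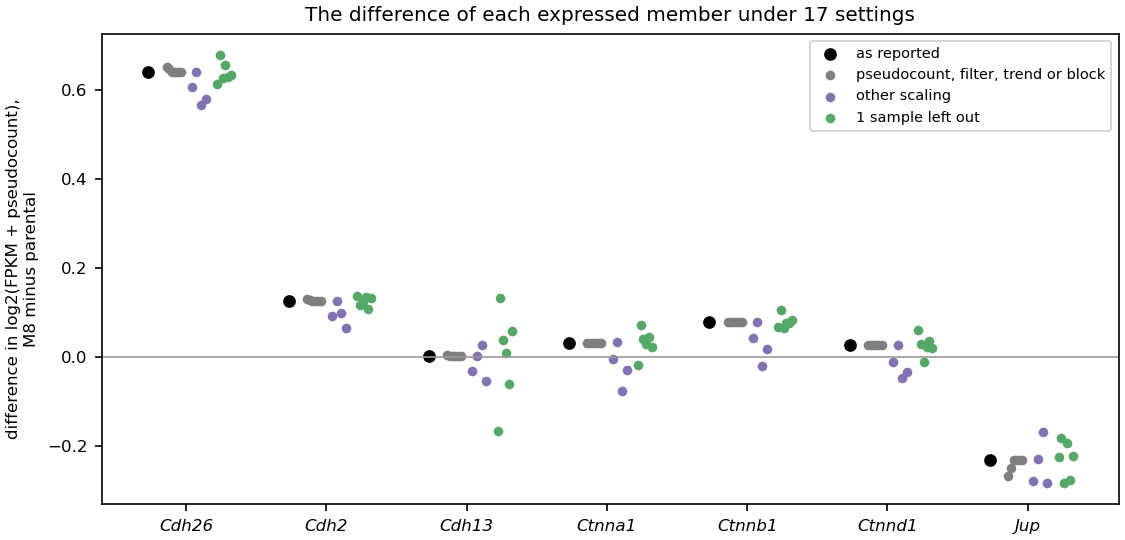
Log2 difference, M8 minus parental, of the 7 members with a mean of at least 1 FPKM as reported (black) and under other pseudocounts, filters and fits (grey), other scalings (purple) and with 1 sample left out (green). Cdh26 stays between 0.567 and 0.679 under the scalings and left-out samples and Jup below 0, while Cdh13, Ctnna1, Ctnnb1 and Ctnnd1 lie on either side of 0.

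The genes around the complex were taken from 13 lists that hold none of the members. Of the 101 list genes tested, 18 (17.8%) were higher and 15 (14.9%) were lower in M8, with a median log2 difference of -0.00131. These shares stand beside 21.2% and 16.5% of all genes. Among 21 other cadherins and cadherin-related genes in the deposited values, 10 were at 0 in all samples and only Cdh24 passed the minimum. Cdh24, another catenin-binding cadherin, went from 10.3 ± 0.359 to 9.42 ± 1.16 FPKM (SD, n = 3), a log2 difference of -0.12 with a limma adjusted p of 0.289, or 0.0672 without M8 sample 2.

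Of 8 protocadherins and large cadherins tested, 3 were higher and 0 lower, with a median difference of 0.0764. The calsyntenin gene Clstn1 was the highest of them in level, at 111 FPKM for the parental line and 113 FPKM for M8 (limma adjusted p = 0.549), above Cdh26, and was named after its values were seen. Pcdh18, a protocadherin that engages intracellular adaptors rather than catenins, went from 7.85 ± 0.515 to 10.6 ± 0.234 FPKM (SD, n = 3), a log2 difference of 0.40 with a limma adjusted p of 0.00204. Pcdh19, which associates with N-cadherin, went from 9.38 to 11 FPKM (0.21, adjusted p = 0.0219). Clstn3, a calsyntenin, went from 3.75 to 4.64 FPKM (0.25, adjusted p = 0.0504), and its adjusted p was 0.117 to 0.14 without parental sample 1 or 2 or M8 sample 2 or 3. Among the 3 other catenins tested, Pkp4, a p120 relative, was higher (29.4 to 32.5 FPKM, 0.14, adjusted p = 0.0297), a call that was lost with TPM, quantile and upper-quartile scaling. Ctnnal1, a relative of alpha-catenin, was lower (15.6 to 13.6 FPKM, -0.19, adjusted p = 0.0498), and its adjusted p was 0.129 to 0.154 without parental sample 2 or 3 or M8 sample 1 or 2.

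Desmosomal genes were barely expressed: 9 of 16 were at 0 in every sample and only the plakophilin gene Pkp3 passed the minimum. It held 1.84, 2.14 and 1.49 FPKM in parental samples and 0.774, 1.05 and 0.606 FPKM in M8. All M8 values were below the parental ones, and the log2 difference was -0.64 with a limma adjusted p of 0.00745. The M8 mean was 0.811 FPKM, below the minimum of 1 FPKM, so Pkp3 was tested only because of its parental level. Nothing about desmosomal genes is read from this call. The other 6 detected desmosomal genes stayed below 1 FPKM on average.

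Among 16 nectins and junction linkers tested, 4 were higher and 2 lower. This balance depended on the scaling, with 4 higher and 4 lower after rescaling to TPM, 3 and 6 after quantile normalization and 3 and 7 after upper-quartile scaling. Ajuba, a LIM protein that binds alpha-catenin, went from 33.3 ± 0.993 to 46 ± 0.789 FPKM (SD, n = 3), a log2 difference of 0.45 with a limma adjusted p of 0.000233. The actin crosslinker Actn1 (76.6 to 91.9 FPKM, 0.26, adjusted p = 0.0216) and the vinexin gene Sorbs3 (21.8 to 26.2 FPKM, 0.25, adjusted p = 0.0162) were also higher. The nectin genes Pvrl2 (57.7 to 50 FPKM, -0.20, adjusted p = 0.00987) and Pvrl1 (1.81 to 1.33 FPKM, -0.27, adjusted p = 0.0739) were lower. The call of Pvrl1 was lost, with an adjusted p of 0.106 to 0.182, without M8 sample 1 or 3 or any 1 of the parental samples, while its log2 difference stayed between -0.317 and -0.217.

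Of 11 genes for cadherin processing and turnover, 1 was higher and 2 were lower. The proprotein convertase Pcsk7, of the family that removes cadherin prodomains, went from 8.56 to 11.1 FPKM (0.34, limma adjusted p = 0.00356). Adam10, which sheds the extracellular part of E- and N-cadherin, went from 19.5 to 16.2 FPKM (-0.26, adjusted p = 0.0104), and Adam15 went from 67 to 50.9 FPKM (-0.39, adjusted p = 0.00209). The remaining 8, among them Furin and the gamma-secretase genes, did not pass the test.

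The genes for transcriptional repressors of Cdh1 were expressed in both lines, with 8 of 10 tested, 1 higher and 0 lower. With TPM 1 was higher and 1 lower, and with upper-quartile scaling 1 was higher and 2 were lower. Without M8 sample 1 the counts were 1 and 1, and without parental sample 3 they were 2 and 0. Twist2 held 82.2, 102 and 98.4 FPKM in parental samples and 131, 126 and 117 FPKM in M8, a log2 difference of 0.41 with a limma adjusted p of 0.00527. Cdh1 was at 0 in both groups, so no relation between the lines could be drawn between the repressors and Cdh1. Among epithelial transcription factors, 2 of 14 were tested and Klf4 was lower (100 to 82.7 FPKM, -0.27, adjusted p = 0.00121).

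The Wnt pathway was described because it shares beta-catenin with the junction. In the destruction complex, which marks beta-catenin for degradation, 1 of 16 genes was higher and 2 were lower, against 0 and 3 with TPM or quantile normalization and 0 and 4 with upper-quartile scaling. Amer1, a scaffold that recruits Apc and Axin to the membrane, went from 2.61 to 1.91 FPKM (-0.31, limma adjusted p = 0.0281), and the ubiquitin ligase subunit Fbxw11 went from 33.6 to 30.1 FPKM (-0.15, adjusted p = 0.0372, or 0.106 and 0.132 without M8 sample 1 or 2). The kinase gene Csnk1a1 (96.8 to 103 FPKM, 0.0916, adjusted p = 0.0913) lost its call without any 1 of the 6 samples, with an adjusted p of 0.12 to 0.228.

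Of 13 nuclear partners of beta-catenin, 2 were higher and 3 lower, against 3 and 1 after quantile normalization and 1 and 3 with TPM or upper-quartile scaling. The higher ones were Cdc73, of the Paf1 complex (14.7 to 17.5 FPKM, 0.24, limma adjusted p = 0.00687), and Lef1, the DNA-binding partner (3.15 to 3.85 FPKM, 0.22, adjusted p = 0.0495). Lower were the coactivator Bcl9 (4.8 to 3.68 FPKM, -0.31, adjusted p = 0.0169) and the corepressors Tle2 (3.64 to 2.84 FPKM, -0.28, adjusted p = 0.0499) and Tle4 (3.42 to 2.74 FPKM, -0.24, adjusted p = 0.0554). The calls of 3 of these genes were lost when certain samples were left out, although their log2 differences kept their direction (Lef1 0.195 to 0.252, Tle2 -0.348 to -0.222, Tle4 -0.28 to -0.191). The adjusted p of Lef1 was 0.117 to 0.138 without parental sample 2 or M8 sample 1 or 3, that of Tle2 was 0.13 to 0.148 without parental sample 1 or M8 sample 1 or 3, and that of Tle4 was 0.126 to 0.156 without parental sample 1 or 2 or M8 sample 3.

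Of 21 Wnt target genes, 9 were at 0 in all samples, 8 were tested, and 3 were higher with 0 lower. The number higher was 1 without M8 sample 2 and 4 without parental sample 3 (the lowest and highest with a sample left out), and 1 gene was lower without parental sample 1. Apcdd1, a Wnt inhibitor, went from 8.63 to 10.1 FPKM (0.21, limma adjusted p = 0.0315, or 0.102 without M8 sample 2), and the cyclin gene Ccnd1 went from 174 to 191 FPKM (0.14, adjusted p = 0.0312, or 0.0274 with an adjusted p of 0.573 after quantile normalization). Ephb2 went from 9.58 to 10.9 FPKM (0.16, adjusted p = 0.054), and its adjusted p was 0.111 to 0.143 without parental sample 1 or 2 or M8 sample 1 or 2. With upper-quartile scaling none of these 3 passed. Axin2, a direct feedback target of the pathway, had means of 0.21 (parental) and 0.279 (M8) FPKM and was below the minimum. Among 12 Wnt receptors and Dishevelled genes tested, Fzd2 (8.08 to 10.3 FPKM, 0.32, adjusted p = 0.0108) and Fzd6 (9.98 to 12 FPKM, 0.25, adjusted p = 0.0358, or 0.1 without M8 sample 3) were higher. Dvl1 (31.5 to 25 FPKM, -0.32, adjusted p = 0.00623) and Lrp5 (8.02 to 6.63 FPKM, -0.24, adjusted p = 0.0298, or 0.113 without M8 sample 1) were lower.

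Of the integrin chains known to bind Cdh26 or Cdh1, the alpha chains had low values and the beta chains high ones. Itga4 was listed at 0 in every sample, and Itgae had means of 0.171 (parental) and 0.0479 (M8) FPKM. The beta chain Itgb1, which pairs with alpha 4, had 215 ± 8.74 and 202 ± 6.69 FPKM (SD, n = 3; limma adjusted p = 0.143), and was called lower with TPM, quantile or upper-quartile scaling and without parental sample 1. Itgb7, which pairs with both alpha chains, went from 131 ± 7.46 to 120 ± 3.67 FPKM (SD, n = 3), a log2 difference of -0.13 with a limma adjusted p of 0.0782 that was 0.118 to 0.226 without parental sample 2 or 3 or any 1 of the M8 samples.

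**Figure D4:**
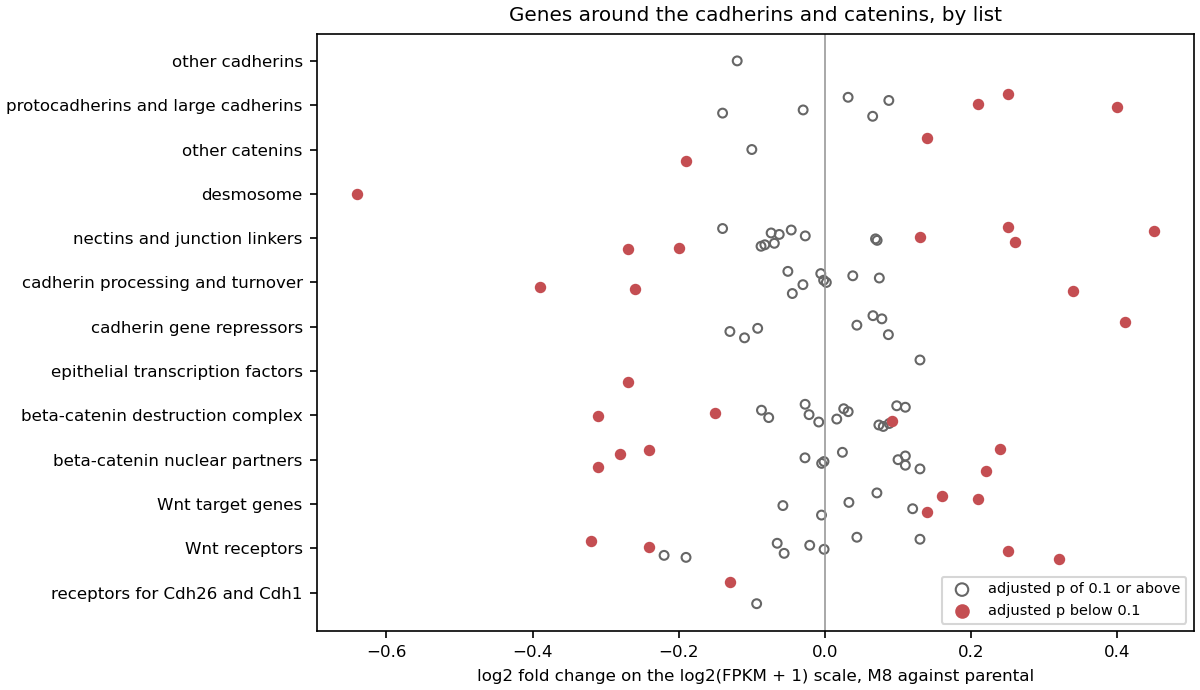
Log2 difference, M8 against parental, on the log2(FPKM + 1) scale of the 101 genes tested in 13 lists around the cadherins and catenins, with filled points for an adjusted p below 0.1. The 18 higher and 15 lower genes are spread over most lists, and their sizes run from -0.64 (Pkp3) to 0.45 (Ajuba). Pkp3 passed the minimum of 1 FPKM only through its parental values.

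The label of colon origin was compared with cell type markers. Of 14 epithelial markers, Krt18, Krt20 and Lgals4 passed the minimum, while Epcam, Krt19 and Cdx2 were listed at 0 in all samples, as was Cdh1. A listed 0 can be a failed estimate: 7 genes in the tables were at 0 in a sample and at 20 FPKM or more in another, while 0 of 14 housekeeping genes were at 0. The summed epithelial markers were 42.8 to 58.6 FPKM in parental samples and 49.2 to 50.8 FPKM in M8. Krt18 had 32.5 and 36.4 FPKM (limma adjusted p = 0.321), whereas Krt20 was lower in M8 (17.4 to 11.9 FPKM, -0.50, adjusted p = 0.00438), as was Lgals4 (1.68 to 0.68 FPKM, -0.66, adjusted p = 0.00728). The M8 mean of Lgals4 lay below the minimum of 1 FPKM, so this gene was tested only because of its parental level. Of 10 mesenchymal markers 8 passed, led by Vim with 1921 and 2015 FPKM (adjusted p = 0.441), and Thy1 was at 0. Their sums were 4556 to 5056 FPKM in parental samples and 5252 to 5498 FPKM in M8, with S100a4 (1434 to 2052 FPKM, 0.52, adjusted p = 0.000302) and Pdgfrb (21.4 to 25.6 FPKM, 0.25, adjusted p = 0.00787) higher and Fn1 (622 to 488 FPKM, -0.35, adjusted p = 0.000917) lower. The collagen genes Col1a1 (88.3 and 93.2 FPKM), Col1a2 (487 and 467 FPKM) and Col3a1 (79.5 and 87.1 FPKM) and the matrix gene Sparc (163 and 176 FPKM) did not pass the test, with adjusted p-values of 0.178 to 0.271. The markers that passed (Krt20, Lgals4, S100a4, Pdgfrb and Fn1) differed between the same samples as Cdh26 and Jup, and their part in those differences was not tested. None of 7 leukocyte and 5 endothelial markers reached 1 FPKM, and their sums were at most 0.604 and 0.265 FPKM.

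Genes whose pattern was most like that of Cdh26 were ranked by Pearson's r of log2(FPKM + 1) over the 6 samples, which fall into 2 groups of 3, so any gene with a clean difference between the lines scores high. The top 5 were the complex I subunit Ndufs8 (r = 0.9977), the mitotic kinesin Kif2c (0.9974), the interferon regulator Irf7 (0.9973), the cytokinesis gene Prc1 (0.9973) and the antizyme inhibitor Azin1 (0.9972). As many as 571 genes reached 0.95 and 42 reached 0.99, so these 5 hardly stand apart. Irf7, for example, held 331, 348 and 339 FPKM in parental samples and 443, 445 and 439 FPKM in M8. Among the members, r with Cdh26 was 0.933 for Cdh2, 0.880 for Ctnnb1, 0.382 for Ctnna1, 0.282 for Ctnnd1, 0.108 for Cdh13 and -0.773 for Jup.

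The nearest genes with a mean of at least 1 FPKM on either side of Cdh26 did not show a difference of its size, and nearer genes below this minimum were not tested. Before it lay Gm14326 (473 kb away, log2 difference 0.0987, limma adjusted p = 0.266), Gm14325 (590 kb, -0.27, adjusted p = 0.0244) and Gm14322 (657 kb, -0.16, adjusted p = 0.38). These 3 belong to a cluster of predicted genes of like name, between which reads may be split. After it lay 4921531C22Rik (1489 kb, 0.26, adjusted p = 0.186, or 0.0468 without parental sample 3), Lsm14b (1538 kb, 0.0743, adjusted p = 0.234) and Psma7 (1549 kb, 0.059, adjusted p = 0.313). Of the 6, only Gm14325 passed the test, and it was lower in M8, in the direction opposite to Cdh26.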

How the data were processed

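RNA was extracted from 3 samples each of CT26.mMR1 and M8 cells, and stranded mRNA libraries were sequenced as single reads. The authors mapped the reads to mm10 and deposited FPKM values, 1 table a sample. The submitters' processing notes name TopHat2 2.1.1, Bowtie2 2.2.8, SAMtools 0.1.18 and Cuffdiff 2.2.1, and the gene annotation is not given in the sources used here. Groups were taken from the sample labels, and all 6 samples were used. Differences were fitted on log2(FPKM + 1) by limma (version 3.58.1, under R 4.3.3), using lmFit and a trended eBayes, for genes averaging 1 FPKM or more, with Benjamini-Hochberg adjustment over all 10597 genes and a threshold of 0.1. The files hold no counts, so no count model was used. The fit was tested on simulated data.

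Estimated reads came from the FPKM steps of low genes with a single transcript, taking transcript length less 200 bases. Positions were read from GENCODE M21 (GRCm38) and promoters from RefSeq (GRCm38.p6). Python 3.11.15 with pandas 2.3.3 and matplotlib 3.10.9 wrote the tables and drew the plots.

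The members and the lists were chosen with earlier results of these data known. Named genes were the members, up to 3 genes a direction in each list by size of difference among those past the threshold (or, in a list with none, the highest by mean), the 5 genes most correlated with Cdh26, its 3 tested neighbours on each side, and the detected markers. Not every gene this rule covers is named. Alternatives were pseudocounts of 0.1 and 0.5, no filter or at least 5 FPKM, median centring, TPM, quantile and upper-quartile scaling, an untrended eBayes, a threshold of 0.05, a replicate block and each sample left out.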

Additional observations from a re-analysis of the deposited data

How the results depend on the processing

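The log2 difference of Cdh26 was 0.64 as reported, 0.58 after upper-quartile scaling and 0.567 after quantile normalization. Genes higher in M8 numbered 2250 as reported and 1470 with upper-quartile scaling, and genes lower numbered 1745 as reported, 2769 with upper-quartile scaling and 1142 to 1681 with single samples left out, the lowest without M8 sample 1. Over the 13 lists, 18 genes were higher as reported and 11 with upper-quartile scaling, and 15 were lower as reported, 27 with upper-quartile scaling and 9 with a mean of at least 5 FPKM. The cause of the shift between scalings was not tested. Upper-quartile scaling moved the median log2 difference of all genes from 0.00687 to -0.0493. Of 693 alternative values for 44 list, neighbour and like genes, 624 kept their direction and side of the threshold, 66 lost the call, 3 gained it and 0 reversed. Calls lost under a scaling were those of Apcdd1, Ccnd1, Csnk1a1, Ephb2, Lef1 and Pkp4 (upper-quartile), Ccnd1, Csnk1a1, Pkp4, Pvrl1, Tle2 and Tle4 (quantile) and Csnk1a1, Ephb2, Lef1 and Pkp4 (TPM).

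With the replicate number as a block, 2171 genes were higher and 1688 lower, Cdh26 stayed at 0.64, and of the named genes Pvrl1 (adjusted p = 0.124) and Csnk1a1 (adjusted p = 0.151) lost their calls. Deviations of same-numbered samples correlated at 0.1, -0.106 and -0.033, against -0.128 to 0.181 for samples with different numbers. With 3 samples a line, these values cannot show whether samples were grown or prepared in pairs. Depth limits Cdh1, Cdh3 and Cdh11, which rest on 0 to about 10.8 estimated reads a library, and no fold is given for them.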
